A study of Mus musculus with 12 samples.

Results

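A set of 10 genes of interleukin-1 (IL-1), tumour necrosis factor (TNF) and NF-kB feedback signalling was followed across cultured cells and fresh tissue of the superior cervical ganglion (SCG) of the mouse, which holds sympathetic neurons. The set holds the ligands Il1a, Il1b, Il33 and Tnf, the receptor antagonist Il1rn, the receptors Il1r1 and Il1rl1, and the feedback genes Tnfaip3, Nfkbia and Nfkbiz. Of 18193 genes with a probe set that names a single gene, 9 were of this set, measured by 19 probe sets; Il1rl1 was not analysed here. Where a gene had several probe sets, the probe set with the highest mean over all arrays stood for the gene, and the others are given beside it.

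The study compared SCG cells after 5 days on a flat dish (2D), SCG cells after 5 days in porous polystyrene scaffolds (3D) and SCG freshly dissected (tissue), to ask how close each culture comes to the tissue. Each group had 4 biological replicates, each on 1 Affymetrix mouse array, 12 arrays in all. All mice were CD1 and 21 days old by the labels, whereas the methods speak of neonatal mice. The 2D surface is a polystyrene Petri dish in the labels and a glass-bottom dish in the methods. The paper's results name both glass and polystyrene for 2D. Both culture surfaces were coated with collagen at 0.1 mg/ml, and both media held 10% serum and nerve growth factor at 50 ng/ml, with cells of 2 ganglia per dish or scaffold on average. The cultures were mixed cells of the ganglion, not purified neurons, and fresh tissue differed from both cultures in dissociation, medium and time outside the animal together, which cannot be told apart. In such bulk RNA, fewer cells of a type and less RNA per cell cannot be told apart either.

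IL-1alpha and IL-1beta signal through the receptor encoded by Il1r1 and its partner Il1rap, IL-33 signals through the receptor encoded by Il1rl1, and TNF signals through its own receptors. All of these routes lead through the IkB kinase complex to NF-kB, a family of transcription factors that IkB proteins hold in the cytoplasm until they are degraded. Genes switched on by NF-kB include its own brakes, among them Nfkbia (IkB-alpha) and Tnfaip3 (A20), so transcripts of such feedback genes are widely used as a readout of the pathway.

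Expression levels are log2 values made by the RMA method, so a difference of 1 is a 2-fold difference, and the levels of different probe sets cannot be set against each other. The groups were compared in pairs, each pair on its 8 arrays, with limma, with p-values adjusted by the Benjamini-Hochberg method over 45037 probe sets and a threshold of 0.05. An exact permutation test, two-sided, was run beside it on all 70 ways of splitting 8 arrays; 0.0286 is the smallest p it can give. RMA values carry no detection call, so a low level is not a statement that the transcript was absent. Array numbers limit the precision: the replicates are 4 per group.

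Between the 2 cultures, 0 of the 9 measured genes passed the threshold, and 0 had an unadjusted p under 0.05 in limma or in the methods' t-test. Over all genes this comparison called 0.0165% (3 genes), and 2377 had an unadjusted p under 0.05 in limma. Fresh tissue differed from 2D cells in 3 of the 9: Il33 was higher in tissue, and Il1r1 and Nfkbiz were lower. Of all genes 24.1% were called between tissue and 2D, 9.87% higher and 14.3% lower. Against 3D cells 5 of the 9 fell in tissue, namely Il1b, Il1rn, Il1r1, Tnfaip3 and Nfkbiz, and 0 rose; of all genes 35.6% were called, 15.5% higher and 20.1% lower. At an unadjusted p under 0.05 the count was 7 of 9 in each tissue comparison, where of the 18193 genes 7447 (tissue against 2D) and 8672 (tissue against 3D) reached that level. The median log2 difference of the 9 genes was -0.63 for tissue against 2D and -1.01 for tissue against 3D, where the median over all genes was 0.03 in both; between 3D and 2D it was 0.28 beside 0.01 for all genes. Both tissue comparisons use the same tissue arrays, so they are not independent of each other. In each of them 8 of the 9 differences lay below 0, Il33 being the exception, and with cyclic loess scaling the difference of Nfkbia against 2D turned to 0.06. With the arrays centred on their bright probe sets, the median over all genes became 0.31 in both tissue comparisons. The share of higher genes among those called was 40.9% against 2D and 43.5% against 3D; it was 61.6% and 60.6% with that centring, and 52.3% in both with cyclic loess.

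**Figure D1:**
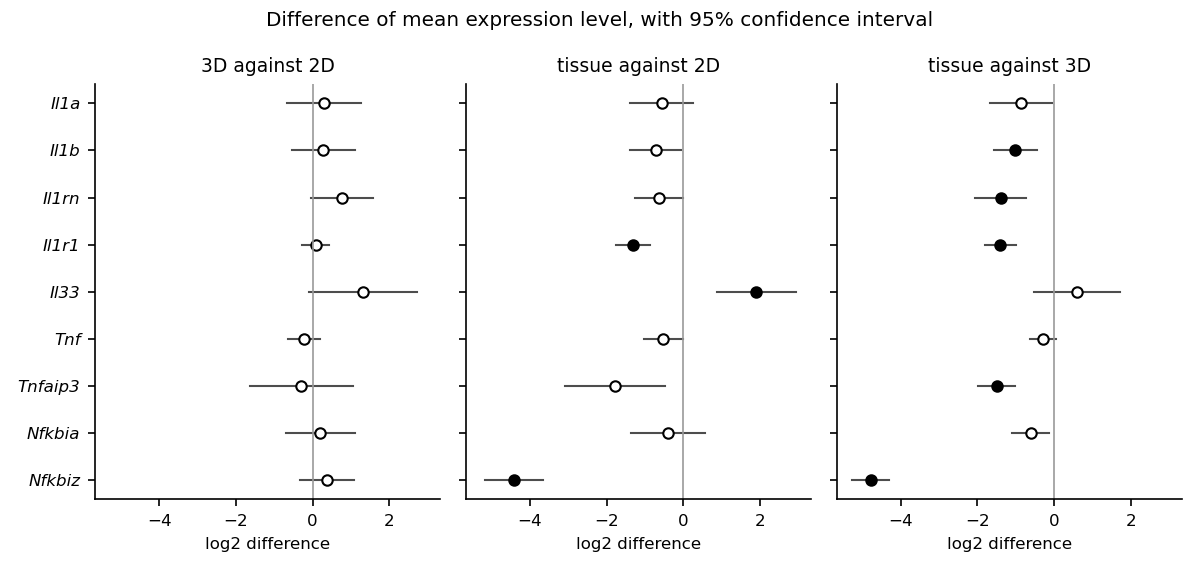
Log2 difference of mean expression level (horizontal axis) for the 9 measured genes in each comparison, with the 95% confidence interval from limma as a line; filled points passed an adjusted p of 0.05. The left panel has 0 filled points, and Nfkbiz in tissue lies farthest from 0, at -4.42 against 2D and -4.79 against 3D.

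Il1a encodes IL-1alpha, a cytokine that is active from its precursor form and can be released by damaged cells. Its level was 6.55, 7.15, 6.45 and 8.0 on 2D replicates 1 to 4, and 7.31, 8.36, 6.85 and 6.83 on 3D replicates 1 to 4. In tissue replicates 1 to 4 it was 5.99, 6.95, 6.75 and 6.22. The ranges of all 3 groups overlapped, with the highest values on 3D replicate 2 and 2D replicate 4. Group means ± SD were 7.04 ± 0.71, 7.34 ± 0.72 and 6.48 ± 0.45 in 2D, 3D and tissue (n = 4 each). The difference between 3D and 2D was 0.30 (SE 0.43, 95% interval -0.67 to 1.27, adjusted p 0.822). Tissue differed by -0.56 from 2D (SE 0.36, adjusted p 0.266) and by -0.86 from 3D (SE 0.36, adjusted p 0.0945), which the test did not call.

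IL-1beta, the product of Il1b, is made as an inactive precursor that caspase-1 cuts. The Il1b level was 5.99, 6.43, 5.84 and 7.28 on the 2D arrays and 6.80, 7.40, 6.22 and 6.25 on the 3D arrays, in replicate order. On the tissue arrays it was 5.62, 5.66, 5.74 and 5.62. These tissue values lay below the median of all probe sets on the tissue arrays (6.38 to 6.53). They also lay below 6, the level used to filter dim probe sets, and whether they sat at the floor of the probe set was not tested. Every tissue array lay below every culture array, and the tissue arrays spread less (SD 0.06) than those of 2D (SD 0.65) and 3D (SD 0.56). Il1b fell in tissue against 3D by 1.01 (SE 0.25, 2.01-fold lower, adjusted p 0.0154). Against 2D the difference was -0.73 (SE 0.29, adjusted p 0.0982; exact permutation p 0.0286), short of the threshold. Between 3D and 2D it was 0.28 (SE 0.36, 95% interval -0.54 to 1.10, adjusted p 0.798). The call against 3D was lost when the arrays were centred on their bright probe sets (difference -0.73, adjusted p 0.0601), and over the alternatives its adjusted p ranged from 0.00710 to 0.0601.

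Il33 encodes IL-33, a nuclear protein of barrier and stromal cells that acts as a cytokine once released. It was the member of the set that was higher in tissue. Its level was 8.68, 6.71, 7.60 and 8.79 on the 2D arrays, 7.60, 9.64, 9.86 and 9.91 on the 3D arrays and 10.38, 9.62, 9.43 and 9.96 on the tissue arrays. The 4 tissue arrays lay above all 4 of 2D. In 3D, replicates 2 to 4 lay among the tissue values while replicate 1 lay among those of 2D. Means were 7.95 ± 0.98 in 2D, 9.25 ± 1.11 in 3D and 9.85 ± 0.42 in tissue. Il33 rose in tissue against 2D by 1.90 (SE 0.45, 3.74-fold, 95% interval 0.88 to 2.92, adjusted p 0.0192). This call was lost with the methods' t-test after adjustment (adjusted p 0.0668); with each array left out in turn, limma's adjusted p ran from 0.0191 to 0.0494, and over the alternatives from 0.00396 to 0.0668. Between 3D and 2D the difference was 1.31 (SE 0.62, 95% interval -0.10 to 2.72, adjusted p 0.470), and between tissue and 3D it was 0.60 (SE 0.50, 95% interval -0.53 to 1.72, adjusted p 0.361). Without 3D replicate 1 these became 1.86 (adjusted p 0.232) and 0.04 (adjusted p 0.903), so that 3D was not separated from either of its neighbours by the test.

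Tnf, the gene of the cytokine TNF, was called in none of the comparisons. Its level was 6.17, 7.15, 6.73 and 6.56 in 2D, 6.47, 6.41, 6.49 and 6.33 in 3D, and 6.06, 6.50, 6.08 and 5.89 in tissue. The 3 ranges overlapped, and the 4 arrays of 3D lay close together (SD 0.07) beside those of 2D (SD 0.41). The mean of this probe set over all arrays lay at percentile 49.7 of all probe sets, and how near it was to the floor was not tested. The difference was -0.23 between 3D and 2D (SE 0.18, adjusted p 0.667). It was -0.52 between tissue and 2D (SE 0.23, adjusted p 0.125) and -0.29 between tissue and 3D (SE 0.15, adjusted p 0.161).

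**Figure D2:**
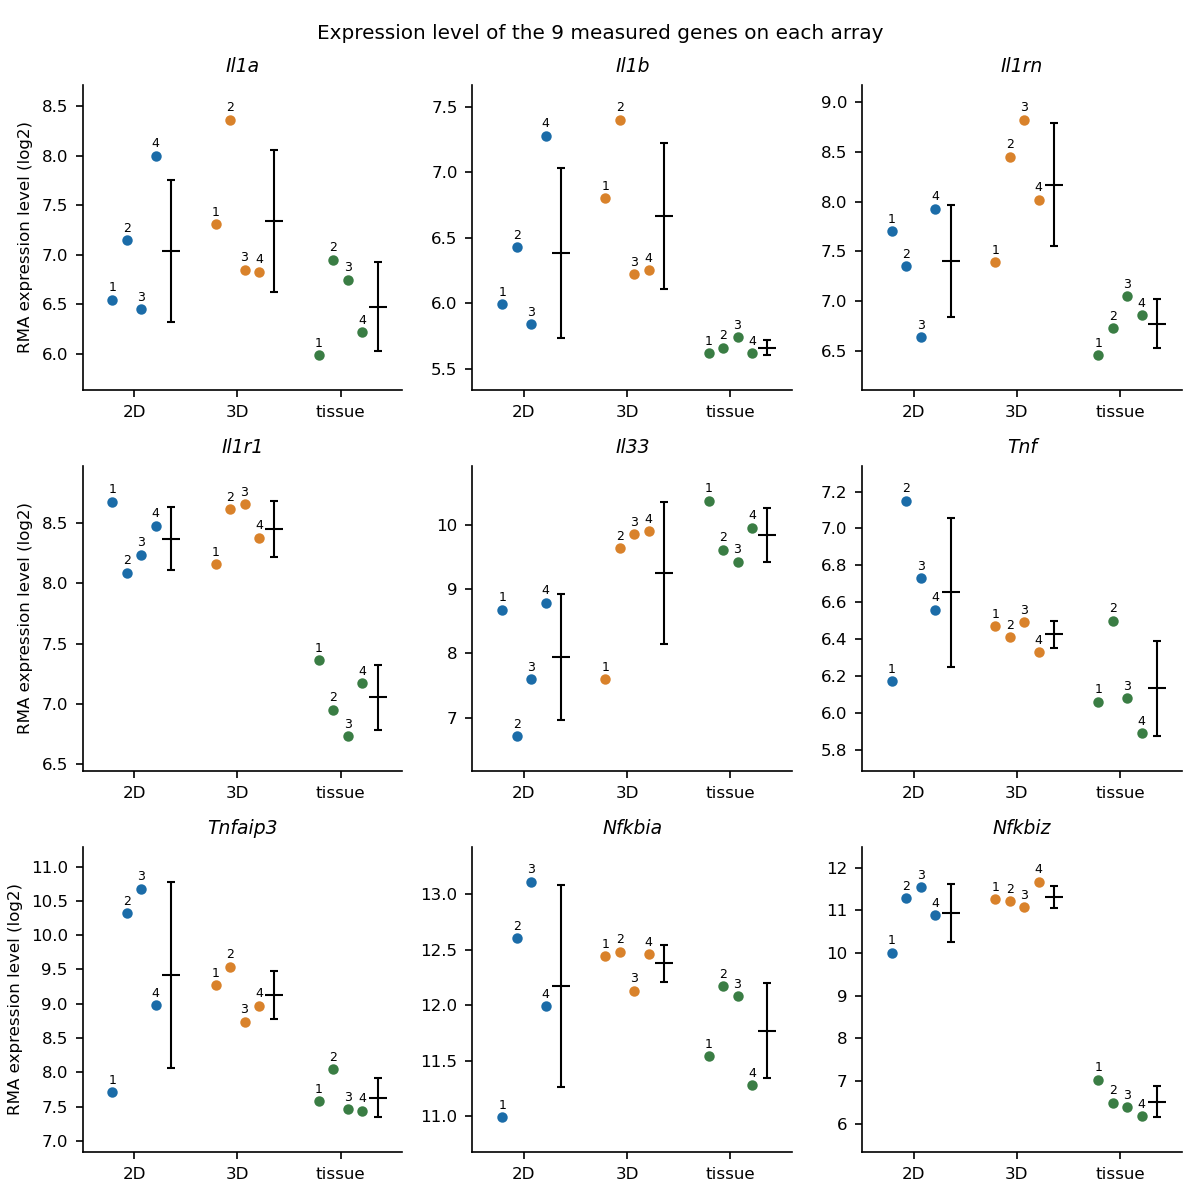
RMA expression level (log2, vertical axis, a scale of its own in each panel) of the 9 measured genes on each array, with the replicate number above each point and the group mean ± SD (n = 4) in black. Nfkbiz, Il1r1 and Il1b show tissue arrays below all culture arrays, and Il33 shows tissue arrays above all 2D arrays.

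Il1rn encodes the IL-1 receptor antagonist, which occupies the receptor without passing a signal. Its level was 7.70, 7.35, 6.64 and 7.93 in 2D, 7.39, 8.45, 8.82 and 8.02 in 3D, and 6.46, 6.73, 7.05 and 6.86 in tissue. Every tissue array lay below every 3D array, while tissue and 2D overlapped through 2D replicate 3. Il1rn fell in tissue against 3D by 1.40 (SE 0.29, 2.63-fold lower, adjusted p 0.00681). Against 2D the difference was -0.63 (SE 0.28, adjusted p 0.124), and between 3D and 2D it was 0.77 (SE 0.35, 95% interval -0.04 to 1.57, adjusted p 0.455). That last value was the smallest adjusted p of the 9 genes between the cultures. The probe sets of Il1rn gave unlike sizes: 1451798_at differed by -2.47 (adjusted p 6.73e-04) between tissue and 3D and 1423017_a_at by -0.62 (adjusted p 0.0620). Without 2D replicate 3 the difference between tissue and 2D was -0.89 (adjusted p 0.0286), and over the alternatives its adjusted p ranged from 0.0223 to 0.369.

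Il1r1 encodes the signalling receptor of both IL-1 ligands. Its level was 8.68, 8.09, 8.24 and 8.48 in 2D and 8.16, 8.62, 8.66 and 8.38 in 3D, so that the cultures covered nearly the same range. In tissue it was 7.36, 6.95, 6.73 and 7.17, below all 8 culture arrays. Il1r1 fell in tissue by 1.32 against 2D (SE 0.19, 2.50-fold lower, adjusted p 0.00267) and by 1.40 against 3D (SE 0.18, 2.64-fold lower, adjusted p 6.24e-04). The cultures differed by 0.08 (SE 0.16, 95% interval -0.27 to 0.44, adjusted p 0.873), the narrowest interval of the 9 genes. The other probe set of Il1r1, 1459777_at, read between 3.02 and 3.75 on all arrays and was called in none of the comparisons. It was among the dimmest of all probe sets (percentile 0.862), so a fall could hardly be seen on it. Both tissue calls held under all 21 alternatives, but with the mean of the 2 probe sets the differences shrank to -0.53 from 2D and -0.63 from 3D. Among the alternatives, the choice of highest SD took the same probe set and the 2-fold requirement reused the main fit, so neither was a separate check.

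The promoter windows of the genes are shown because feedback genes are defined by their response to NF-kB. Windows of 250 bases before a gene's start were taken from the RefSeq promoter table (mouse build GRCm38.p6), which held 15 such windows for 9 of the 10 genes; Nfkbiz was not among them. The NF-kB consensus motif, searched on both strands, was found in 3 of the 15 windows, 1 each of Nfkbia, Tnfaip3 and Il1r1. It was in 7.25% of all 32851 windows of this length. A match describes letters in the window and is not a binding site shown by these data. The windows with a match follow, 5′ to 3′ on the strand of the gene, with each match in capitals.
Nfkbia: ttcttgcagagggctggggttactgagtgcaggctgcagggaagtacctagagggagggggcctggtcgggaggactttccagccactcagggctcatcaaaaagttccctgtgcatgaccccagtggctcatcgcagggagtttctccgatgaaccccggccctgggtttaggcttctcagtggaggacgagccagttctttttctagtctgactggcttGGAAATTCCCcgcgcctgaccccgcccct
Tnfaip3: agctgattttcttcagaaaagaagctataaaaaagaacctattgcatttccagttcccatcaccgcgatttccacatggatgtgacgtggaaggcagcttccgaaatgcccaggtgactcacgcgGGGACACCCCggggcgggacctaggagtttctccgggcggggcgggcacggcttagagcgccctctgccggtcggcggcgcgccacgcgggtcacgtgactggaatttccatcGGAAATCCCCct
Il1r1: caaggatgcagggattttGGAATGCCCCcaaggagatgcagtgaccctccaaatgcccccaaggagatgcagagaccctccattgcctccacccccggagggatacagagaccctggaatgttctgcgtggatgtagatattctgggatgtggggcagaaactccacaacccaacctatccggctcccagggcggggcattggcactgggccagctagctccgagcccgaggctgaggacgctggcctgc
The Nfkbia window is chr12:55492648-55492897 on the minus strand, and its match GGAAATTCCC starts 29 bases before the start of the gene. The Tnfaip3 window is chr10:19015411-19015660 on the minus strand, with GGGACACCCC starting 125 bases and GGAAATCCCC 12 bases before the start. The Il1r1 window is chr1:40266336-40266585 on the plus strand, with GGAATGCCCC at 232 bases. Another window of Tnfaip3 and another of Il1r1, at other annotated starts, held no match.

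Nfkbia encodes IkB-alpha, the inhibitor that binds NF-kB, is degraded on signalling and is then made anew. Its level was 10.99, 12.60, 13.11 and 11.99 in 2D, 12.44, 12.48, 12.13 and 12.46 in 3D, and 11.54, 12.17, 12.08 and 11.28 in tissue. The 2D arrays covered the whole range of the other groups (SD 0.91 in 2D, 0.17 in 3D and 0.43 in tissue). The difference was 0.21 between 3D and 2D (SE 0.39, adjusted p 0.873), -0.41 between tissue and 2D (SE 0.43, adjusted p 0.487) and -0.61 between tissue and 3D (SE 0.22, adjusted p 0.0563). This probe set, 1420088_at, is the brightest of 5 for the gene, and the outcome depended on which of them was read. Probe set 1448306_at read 9.17, 11.33, 11.61 and 10.37 in 2D, 10.79, 11.25, 10.62 and 11.12 in 3D, and 8.47, 8.72, 7.38 and 8.96 in tissue. All 4 tissue arrays lay below all culture arrays on it. There tissue fell by 2.24 against 2D (SE 0.55, adjusted p 0.0213) and, with a difference of -2.56, against 3D (SE 0.33, 5.91-fold lower, adjusted p 5.93e-04). Probe sets 1449731_s_at and 1438157_s_at fell against 3D by 1.53 (adjusted p 8.71e-04) and by 0.89 (adjusted p 0.0270), whereas 1420089_at differed by -0.78 (adjusted p 0.0506). Against 2D these 3 passed no threshold, at -1.27, -0.64 and -0.77. Between the cultures all 5 lay from 0.005 to 0.33 with no call.

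**Figure D3:**
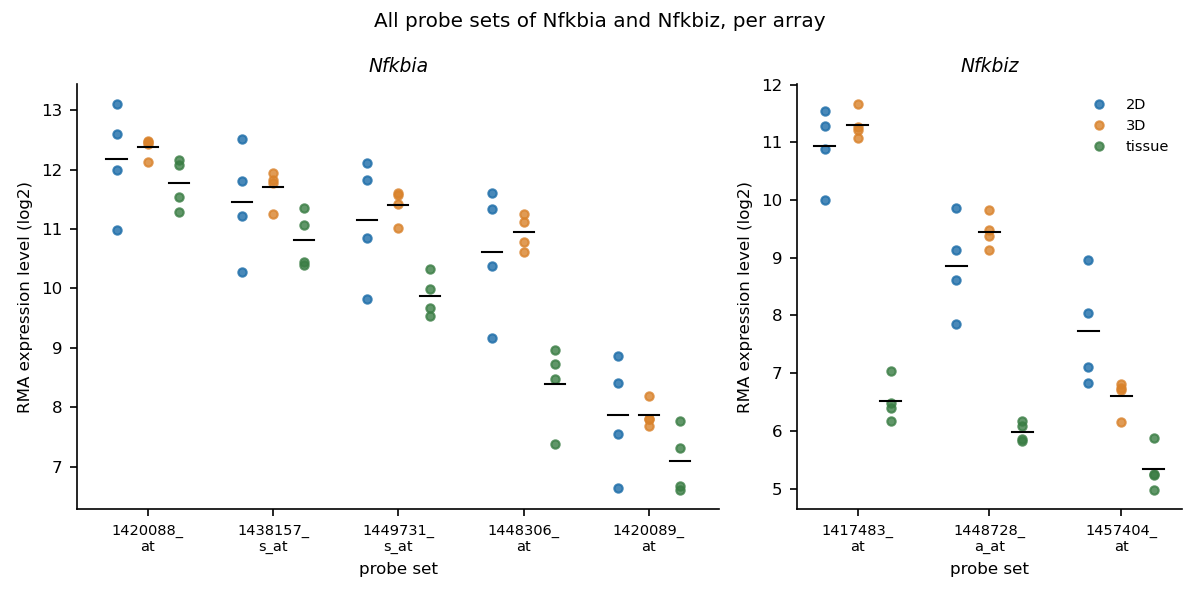
RMA expression level (log2, vertical axis) on each array for all 5 probe sets of Nfkbia and all 3 of Nfkbiz (horizontal axis), with group means as black lines (n = 4). The differences of tissue from 3D run from -2.56 to -0.61 across the Nfkbia probe sets and from -4.79 to -1.27 across those of Nfkbiz.

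Tnfaip3 encodes A20, an enzyme that edits ubiquitin chains and ends signalling from the TNF and IL-1 receptors. Its level was 7.71, 10.32, 10.68 and 8.98 in 2D, 9.27, 9.54, 8.74 and 8.97 in 3D, and 7.58, 8.05, 7.46 and 7.44 in tissue. Every tissue array lay below every 3D array, while 2D replicate 1 lay within the tissue range. Tnfaip3 fell in tissue against 3D by 1.50 (SE 0.21, 2.82-fold lower, adjusted p 0.00103). Against 2D the mean difference was wider, at -1.79, but so was its error (SE 0.58, adjusted p 0.0541). Without 2D replicate 1 that difference was -2.36 (adjusted p 0.00906), and over the alternatives its adjusted p ranged from 0.00906 to 0.142. The cultures differed by -0.29 (SE 0.59, 95% interval -1.63 to 1.04, adjusted p 0.880). A dimmer probe set, 1450829_at, fell by 0.43 against 3D (adjusted p 0.0260) and differed by -0.21 from 2D (adjusted p 0.277).

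Nfkbiz encodes IkB-zeta, a nuclear member of the IkB family that is induced by IL-1 and takes part in switching on a further group of NF-kB targets such as Il6 and Lcn2. Its level was 10.01, 11.29, 11.55 and 10.89 in 2D, 11.27, 11.21, 11.07 and 11.67 in 3D, and 7.03, 6.49, 6.39 and 6.17 in tissue. Every culture array read 10.01 or more and every tissue array 7.03 or less. Nfkbiz fell in tissue by 4.42 against 2D (SE 0.33, 21.3-fold lower, adjusted p 1.18e-04) and by 4.79 against 3D (SE 0.21, 27.6-fold lower, adjusted p 3.14e-06). Both calls held under all 21 alternatives, at -4.72 to -3.23 against 2D and at -4.96 to -3.17 against 3D. Among these, the choice of highest SD took the same probe set and the 2-fold requirement reused the main fit, so neither was a separate check. The other probe sets fell too, 1448728_a_at with differences of -2.88 and -3.47 from 2D and 3D (adjusted p 0.00154 and 5.67e-06) and 1457404_at with -2.40 and -1.27 (adjusted p 0.00707 and 0.00325). The cultures differed by 0.37 (SE 0.31, 95% interval -0.33 to 1.07, adjusted p 0.679). On 1457404_at 3D and 2D did not overlap, at 6.15 to 6.81 in 3D and 6.83 to 8.96 in 2D. That difference of -1.13 had an unadjusted p of 0.0274 and an adjusted p of 0.369, and its direction was opposite to that on the other 2 probe sets of the gene (0.37 and 0.59).

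Among the 8 culture arrays the genes did not vary as a block. Nfkbia, Tnfaip3, Nfkbiz and Tnf had their lowest culture value on 2D replicate 1, at -1.29, -1.57, -1.11 and -0.37 from their culture means. On that array 21 other NF-kB target genes had a median deviation of -0.86. The highest values of Nfkbia and Tnfaip3 were on 2D replicate 3 (0.83 and 1.40), where Il1a, Il1b and Il1rn were at their lowest (-0.74, -0.69 and -1.15). Il1a and Il1b were highest on 3D replicate 2 (1.17 and 0.87) and 2D replicate 4 (0.81 and 0.75). The median deviation of 12 macrophage markers was 1.29 on 2D replicate 4, -1.12 on 2D replicate 3 and 0.03 on 3D replicate 2, and their part in the spread of the IL-1 genes was not tested. Il33 had the widest range, from -1.89 on 2D replicate 2 to 1.31 on 3D replicate 4. These deviations are a description of single arrays, with no test.

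**Figure D4:**
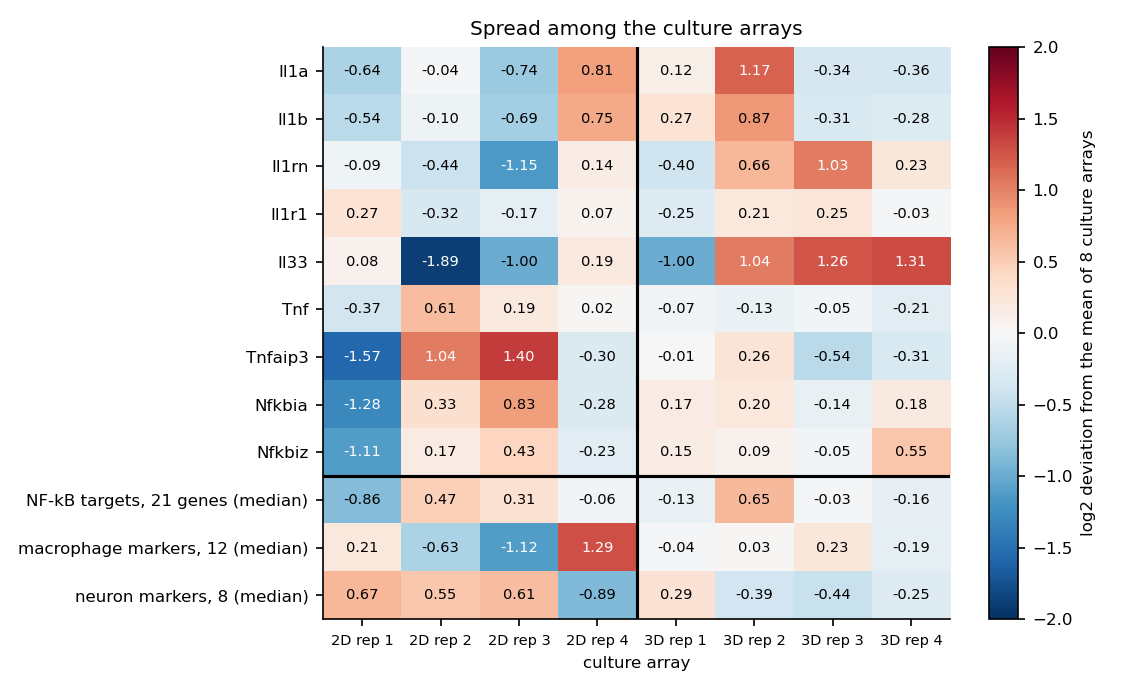
Deviation of each gene's log2 level from its mean over the 8 culture arrays (columns), as numbers and colour, with the median deviation of NF-kB target, macrophage and neuron marker genes below the line. Nfkbia, Tnfaip3 and Nfkbiz share their lowest value on 2D replicate 1 (-1.29, -1.57 and -1.11), and Il1a and Il1b share their highest on 3D replicate 2 (1.17 and 0.87).

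Of 71 other genes of the pathway in 6 lists, 64 were measured and 7 not analysed here. The lists were chosen with earlier results of these data known, and the genes named are those of smallest adjusted p in each. Between the cultures 0 of the 64 were called, with 8 at an unadjusted p under 0.05 in limma. Of all 18193 genes this comparison called 0.0165%, and 2377 had an unadjusted p under 0.05 in limma, so these counts do not set the pathway apart. Against 2D, 32 fell in tissue, 1 rose and 31 did not pass. Against 3D, 38 fell, 6 rose and 20 did not pass. Over all genes 14.3% were called lower and 9.87% higher against 2D, and 20.1% lower and 15.5% higher against 3D. The median log2 difference of the lists lay between -3.02 and 0.18 against 2D and between -3.83 and 0.17 against 3D.

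Of 10 genes of IL-1 family ligands, receptors and processing, 2 were lower and 1 higher against 2D, and 2 lower and 2 higher against 3D. These counts lay close to the shares called over all genes (24.1% and 35.6%). The 2 that fell were Il1rap, the partner chain of the IL-1 receptor (log2 difference -2.95 from 2D and -3.21 from 3D, adjusted p 3.88e-05 and 2.86e-06), and Casp1, the protease that cuts the IL-1beta precursor (-2.63 and -3.02). Pycard, the adaptor of the inflammasome, rose against 3D by 0.82 (adjusted p 0.0103) and differed by 0.44 from 2D. Of 9 receptor adaptors and kinases, 3 fell against 2D and 4 against 3D, with 1 higher against 3D. Myd88, the adaptor of the IL-1 receptor, fell in both comparisons (-0.77 and -0.78), as did the kinase gene Map3k7, which encodes TAK1 (-0.70 and -0.84). Irak3, an inhibitory kinase-like gene, fell against 3D by 1.53 (adjusted p 0.0149) and differed by -0.74 from 2D without a call. Of 9 TNF receptors and adaptors, 3 fell against 2D and 4 against 3D, with 2 higher against 3D. Tnfrsf1a, the main TNF receptor, fell in both (-1.44 and -1.55), as did the adaptor gene Traf2 (-1.36 and -1.55) and Cflar, which encodes an inhibitor of caspase-8 (-0.98 and -1.08).

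Downstream of these receptors and adaptors, 4 of 6 IKK and NF-kB subunit genes fell against 2D and 5 against 3D. Among them Nfkb2 (-1.19 and -1.23), Rela (-0.86 and -0.93) and Ikbkg, which encodes NEMO (-2.23 and -2.50), fell in both. Of 9 other inhibitors and feedback genes, 6 fell against 2D and 7 against 3D, with 1 higher against 3D. Those falling in both included Bcl3, a nuclear IkB protein (-2.09 and -2.27), Zc3h12a, a ribonuclease of cytokine transcripts (-2.10 and -2.30), and the deubiquitinase gene Otulin (-0.97 and -1.25). Of 21 other NF-kB target genes, 14 fell against 2D and 16 against 3D, and 0 rose. Il6, the gene of the cytokine IL-6 (-7.63 and -6.09), Ptgs2, which encodes COX-2 (-5.71 and -6.39), and the chemokine gene Ccl2 (-6.19 and -6.57) fell in both. The mean level over the target genes was 8.22 to 9.72 in 2D, 9.24 to 10.14 in 3D and 5.86 to 6.21 in tissue.

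**Figure D5:**
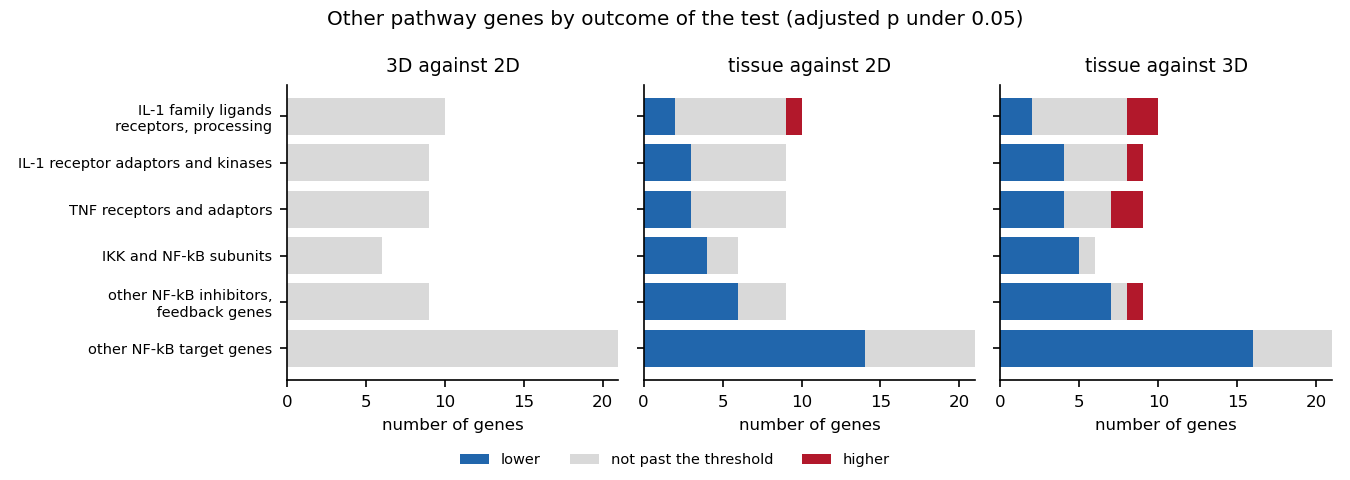
Number of genes (horizontal axis) lower, higher or not past an adjusted p of 0.05 in 6 lists of other pathway genes, by comparison. For a tissue comparison lower means lower in tissue, as 14.3% of all genes were against 2D and 20.1% against 3D. In tissue, 14 of 21 NF-kB target genes are lower against 2D and 16 of 21 against 3D. So are 6 and 7 of 9 other inhibitors, and 4 and 5 of 6 subunit genes. The comparison of 3D with 2D has 0 in every list, where 0.0165% of all genes were called.

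Markers of cell types also differed between tissue and the cultures, and their part in these differences was not tested. Beside the counts below, 9.87% of all genes were called higher and 14.3% lower against 2D, and 15.5% and 20.1% against 3D. A few calls in a short list are therefore not read as a shift in makeup. Of 12 macrophage markers, tissue had 9 higher and 2 lower than 3D, and 2 higher and 1 lower than 2D. The mean level of that list was 5.78 to 8.42 on the 2D arrays, 6.91 to 7.27 on the 3D arrays and 7.71 to 8.49 on the tissue arrays. Csf1r, Aif1 and Adgre1 differed from 3D by 1.75, 0.86 and 0.11, the last without a call. Neutrophil markers showed 1 of 6 higher against 2D and 0 against 3D, with S100a8, S100a9 and Mpo uncalled in both (-0.46 to 0.21). Mast cell markers showed 3 of 8 higher in each comparison, these being the 3 named ones, Cpa3, Kit and Mcpt4. T and NK cell markers showed 0 and 1 of 8 higher, with Cd3e, Cd3d and Cd3g uncalled. Endothelial markers showed 5 higher and 1 lower of 10 against 2D and 6 higher against 3D; Kdr was called in both, Cdh5 against 3D, and Pecam1 in neither. Fibroblast markers showed 2 of 8 higher in each, though not the same genes, with Col1a1, Col1a2 and Col3a1 uncalled. Glial markers showed 1 higher and 3 lower of 6 in each; Sox10 was lower in both (-1.30 and -1.68), while S100b and Fabp7 were uncalled. Neuron markers showed 2 of 8 higher against 2D and 5 against 3D; Th was higher by 2.58 against 3D, and Dbh and Phox2a were uncalled. Skeletal muscle markers showed 3 and 5 of 8 higher, with Myh1, Tnnc2 and Casq1 called in both. These levels were uneven among the tissue arrays, with Myh1 from 4.38 to 11.23. The mean over that list was 5.06 to 8.955 in tissue, 4.88 to 5.08 in 2D and 4.87 to 4.98 in 3D. Separately, tissue replicates 2 and 3 had a narrower spread of values over all probe sets (SD 2.14 and 1.93) than the other 10 arrays (2.31 to 2.42). Without those 2 tissue arrays, a choice made after seeing the data, 3 of the 9 genes were called against 2D. Against 3D 8 were called, all but Il33 and all lower. Of all 18193 genes this choice called 4068 against 2D and 8620 against 3D, beside 4393 and 6475 with all arrays.

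The genes whose course over the 12 arrays was nearest to that of Nfkbiz, by the root mean square difference of values each centred on its own mean, were Igfbp3 (0.440), Top2a (0.456) and Tpx2 (0.467), on a log2 scale on which the group means of Nfkbiz spanned 4.79. For Il33, whose group means spanned 1.90, they were Cxcl12 (0.515), Cdk5r1 (0.535) and Apod (0.593).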

How the data were processed

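Messenger RNA of 12 samples was measured on Affymetrix mouse arrays. The deposited values are on a log2 scale and were computed by the authors with RMA, which adjusts background, applies quantile normalization and summarizes each probe set (Expression Console, version not given in the sources used here). Quantile normalization can hide a change common to most genes; the deposited arrays still differ in spread (SD over all probe sets 1.93 to 2.42). Batches were not tested, no scan dates having been used. Groups came from the labels. After leaving out 64 control probe sets, 45037 were tested; platform annotation gave 34945 of them 1 symbol and 932 several, and left 9160 unnamed here. Pairs of groups were compared with limma 3.58.1 (lmFit and eBayes; R 4.3.3, statmod 1.5.0), which was tested on simulated data. No array was left out or imputed. The members and lists were chosen with earlier results of these data known. Genes named in the text are all members, the 3 genes of each pathway list with the smallest adjusted p, the first 3 genes of each marker list with a named probe set, and the 3 genes most like each of the 2 members with the widest range. The alternatives were another fit (1 fit of all arrays, array weights, a trended robust prior, a replicate block, the methods' t-test), a filter on dim probe sets (a level of at least 6 on 4 arrays), a requirement of at least a 2-fold difference, other scalings, other choices of probe set, and leaving out arrays.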

Additional observations from a re-analysis of the deposited data

Results flagged for a closer look

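In 27 groups of 4 arrays (9 genes in 3 groups), 2 arrays stood apart from the other 3 of their group by Dixon's criterion, which chance meets in about 1 in 20 groups. Il33 on 3D replicate 1 read 7.60, with the gap to its nearest neighbour taking 0.883 of the range of the group. Nfkbia on 3D replicate 3 read 12.13, where that share was 0.886, although the 3D values of Nfkbia differed little (SD 0.17).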

How the results depend on the processing

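Between the cultures 0 of the 9 genes were called under any of 20 alternatives; of 21 alternatives for tissue, the count was 2 to 4 against 2D and 4 to 8 against 3D. The 8, 0 higher and 8 lower, came from leaving out tissue replicates 2 and 3 together, a choice made after seeing the data. Over all genes that choice gave 8620 calls against 3D, beside 6475 with all arrays. Of single values, 1 call was lost in each tissue comparison: Il33 against 2D with the methods' t-test after adjustment (adjusted p 0.0668), and Il1b against 3D with centring (-0.73, adjusted p 0.0601). Calls were gained in 9 and 14 values, most often for Nfkbia and Tnf against 3D and Tnfaip3 against 2D. Directions that turned were of uncalled values: Nfkbiz between the cultures with the mean of its probe sets (-0.058) and Nfkbia between tissue and 2D with cyclic loess (0.057). With each array left out in turn, the difference between 3D and 2D ran from -0.041 to 0.62 for Il1a, from -0.012 to 0.18 for Il1r1, from -0.86 to 0.13 for Tnfaip3 and from -0.19 to 0.52 for Nfkbia. The cause was not tested.

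The labels do not say that a replicate number marks a shared batch, and the correlation of the deviations of same-numbered arrays did not exceed 0.1 in every pair (lowest 0.03 for 3D with 2D, -0.07 for tissue with 2D and 0.01 for tissue with 3D; highest 0.41), so the numbers were not taken to pair the samples. In each pair of groups 4 of 8 arrays correlated best with their own number, a hint from the data that does not settle the pairing. With the replicate block 0, 4 and 6 of the 9 genes were called (3D against 2D, tissue against 2D and tissue against 3D), beside 0, 3 and 5 without it. Over all genes the counts in the same order fell to 0, 4243 and 6138 with the block, from 3, 4393 and 6475 without it.

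Counts over all genes moved more. Between 3D and 2D, 3 genes became 312 with array weights, 2118 with the unadjusted and 0 with the adjusted methods' t-test, 0 with the replicate block and 0 to 123 with an array left out. Between tissue and 2D, 4393 became 7172 in 1 fit of all arrays, 6681 and 2668 with the unadjusted and the adjusted t-test, 2718 at a difference of at least 2-fold, and 2369 to 5135 with an array left out. Between tissue and 3D, 6475 became 3618 at a difference of at least 2-fold and 8620 without tissue replicates 2 and 3.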
